A study of Mus musculus with 100 samples.

Results

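The extracellular matrix proteases and their inhibitors were examined in mouse embryonic fibroblasts (MEFs), induced pluripotent stem cells (iPSCs) derived from such fibroblasts, and embryonic stem cells (ESCs). All genes of the expression table named as a matrix metalloproteinase (Mmp), as a secreted metalloproteinase with thrombospondin motifs (Adamts) or as a tissue inhibitor of metalloproteinases (Timp) were taken, whatever their level. This gave 46 of the 25965 genes of the table, of which 23 were Mmp, 19 Adamts and 4 Timp genes. RNA was sequenced in 18 libraries, 3 biological replicates in each of 6 groups.

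All groups were F1 hybrids of a C57BL/6J (BL6) and a Mus musculus castaneus (CAST) parent. The female MEFs came from 1 mid-gestation embryo of a BL6 mother and a CAST father, and carried a doxycycline-inducible reprogramming cassette from the i4F strain and rtTA in the Rosa26 locus. F KSR2 and F KSR4 were iPSC lines from that female embryo, and M KSR3 and M KSR5 were lines from 1 male embryo of the same cross. These KSR-iPSCs were made by adding doxycycline to fibroblasts in medium with knockout serum replacement (KSR) and LIF. Each line grew from 1 picked colony, which was first plated on feeder cells without doxycycline, so the 3 replicates of a line are samples of 1 clone. TX 2i ESCs were 1 female BL6 x CAST ESC line, TX1072, kept in serum (FBS) medium with LIF and 2 inhibitors (2i), CHIR99021 and PD0325901, and not in KSR medium. Male MEFs are not analysed here, so the male lines were also set against female MEFs, and serum or KSR, the inhibitors, derivation and line cannot be told apart between KSR-iPSCs and TX 2i ESCs. The KSR-iPSCs are of both sexes and the TX 2i ESCs are female.

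Matrix metalloproteinases are zinc enzymes that cleave collagens, laminins, fibronectin and many signalling proteins outside the cell. Most are made as inactive zymogens, several are anchored in the plasma membrane, and fibroblasts are a main source of them in connective tissue. ADAMTS enzymes are secreted relatives that bind the matrix, where some cleave the proteoglycans aggrecan and versican and others trim procollagens so that fibrils can form. TIMPs bind the active site of these enzymes and block it, and the balance of TIMPs and enzymes sets how fast matrix is turned over.

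Levels are given as log2 RPM, the log2 of the reads of a gene scaled to a fixed library total (RPM), without a correction for gene length. A single read stood at -4.29 to -3.89, depending on the library, and a gene without reads is held just below. The depth was 13183036 to 17921280 reads on genes (median 15722711). The summed level of 15 fibroblast markers was 4514 to 5831 RPM in female MEFs and 19.8 to 73.9 RPM in the 15 pluripotent libraries, where Fap, Tcf21, Lum, Dcn or Prrx1 had 0 reads in all libraries of at least 1 group. The summed level of 10 pluripotency markers was 1.95 to 2.63 RPM in MEFs and 4125 to 8720 RPM in the pluripotent libraries, and Pou5f1, Zfp42, Dppa5a and Tdgf1 had 0 reads in MEFs. The 7 macrophage markers found in the table summed to 197 to 250.1 RPM in MEFs and to 4.77 to 28.9 RPM elsewhere, and their part in the MEF levels of these genes was not tested. In such bulk samples, fewer cells of a type and less RNA per cell cannot be told apart. Among the replicates, F KSR4 replicate 2 stood apart in Mmp14 and Mmp17 and M KSR5 replicate 3 in Timp2, Timp3 and Adamts5, so counts are given with and without both libraries.

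Most matrix proteases and inhibitors that could be tested were lower in pluripotent cells than in fibroblasts. Of the 46 genes, 33 had a log2 RPM above 0 in at least 3 of the 18 libraries and were tested. In the mean of the 5 pluripotent groups, 23 of these 33 (69.7%) were lower than in female MEFs and 4 (12.1%) were higher at an adjusted p of 0.05, against 32.5% lower and 42.1% higher among all 14632 genes tested. The median log2 difference was -3.0 over the 33 genes and 0.21 over all genes tested. In each of the 5 pluripotent groups separately, 18 genes (54.5%) were lower, against 20.5% of all genes, and Mmp15 and Mmp25 were higher (6.06%, against 26.6%). Adamts12, Adamts3, Adamts5, Mmp13, Mmp16 and Mmp3 passed the filter through the MEF libraries alone and had to differ, so the counts say less than the values of single genes. Of the genes called higher, Mmp24 and Mmp25 were below a log2 RPM of 0 in all MEF libraries. Adamts8 was at most 0.07 there. These genes passed the filter through the pluripotent libraries, so their calls also say less than their values. Without both libraries that stood apart, 23 genes were lower and 5 higher, and 18 were lower in each group.

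**Figure D1:**
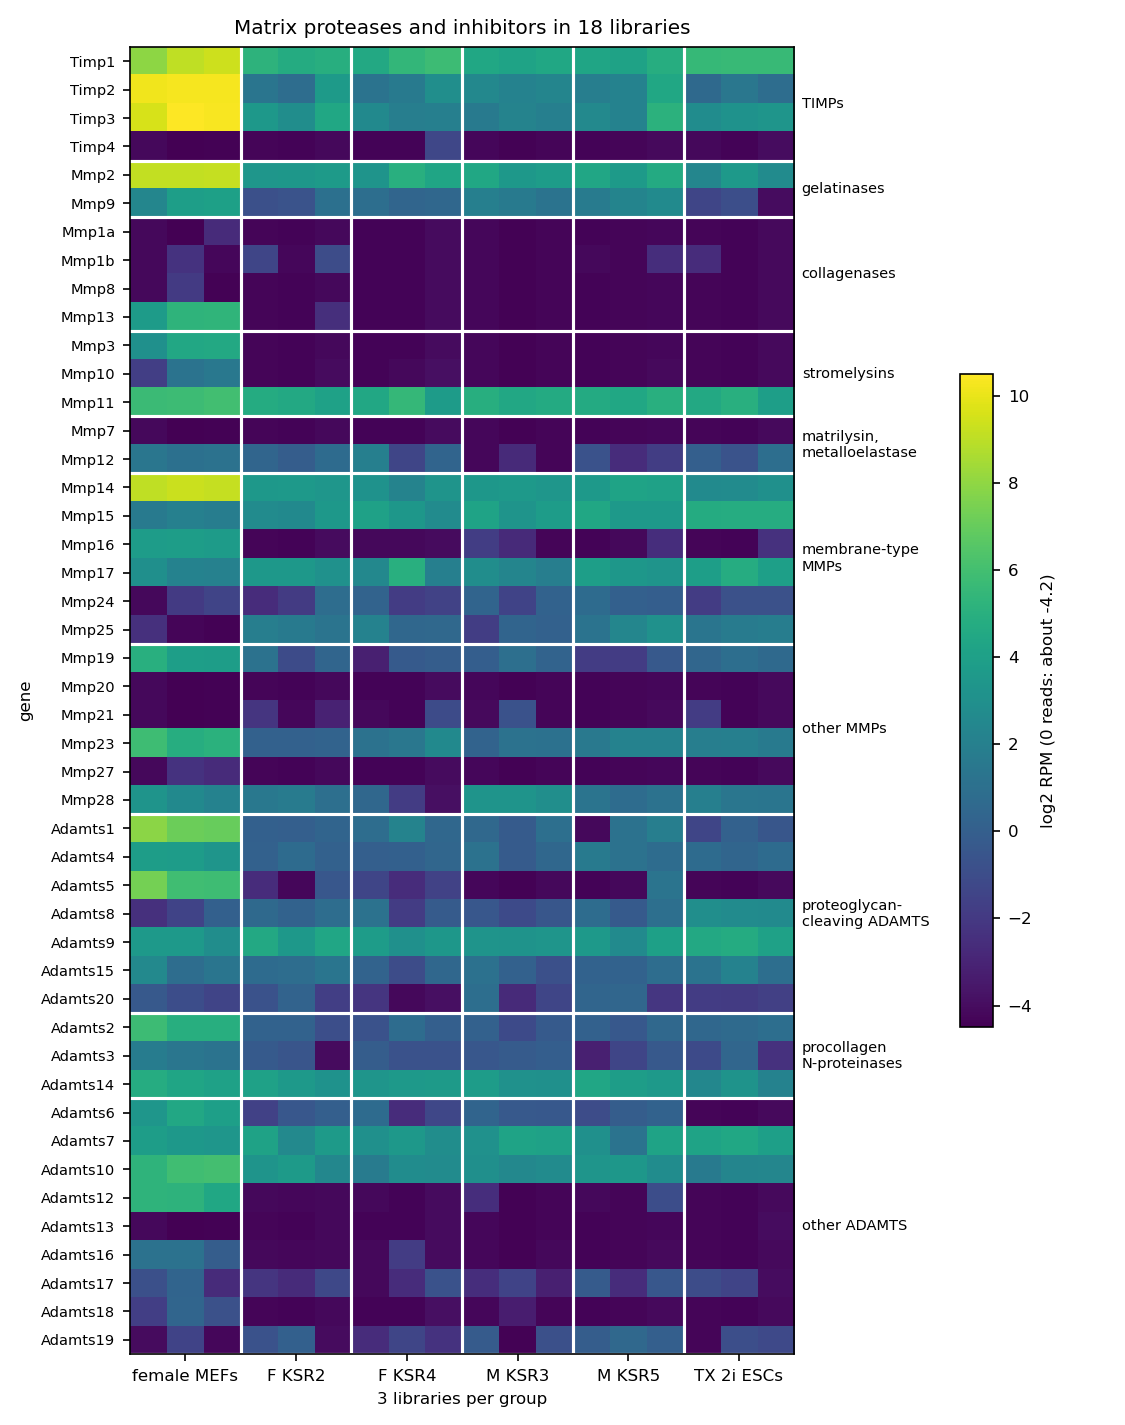
Heat map of the log2 RPM (colour) of the 46 genes (rows, grouped by role) in the 18 libraries (columns, 3 per group), where the lowest values are 0 reads. Timp1, Timp2, Timp3, Mmp2 and Mmp14 were brightest in the female MEFs, Mmp11, Adamts7, Adamts9 and Adamts14 kept a level in all groups, and Mmp3 and Mmp13 were at or near 0 reads outside MEFs.

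The inhibitors were the most abundant genes of the set per length in fibroblasts. Timp1, which inhibits most secreted MMPs, stood at 540.4 RPM per kb of exons in female MEFs, Timp2, which inhibits MMPs and also takes part in activating MMP2 at the cell surface, at 335, and Timp3, which is bound to the matrix and also inhibits ADAMTS enzymes, at 249. Timp4, the inhibitor known from heart and brain, had 0 reads in all 3 MEF libraries and at most 6 reads in any library, so it was not tested. All 3 other inhibitors were lower in the pluripotent groups. Timp2 overlaps BC100451 on the same strand, so reads of that gene may be among those of Timp2.

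Timp1, on the X chromosome (chrX:20870166-20874735, GRCm38, + strand, overlapping Syn1 on the other strand), had log2 RPM values of 7.96, 9.05 and 9.37 in female MEFs. They were 5.57, 5.58 and 5.62 in TX 2i ESCs, 4.33, 4.12 and 4.87 in M KSR5, 4.42, 4.18 and 4.41 in M KSR3, 4.54, 5.46 and 5.77 in F KSR4 and 5.18, 4.74 and 4.91 in F KSR2. Every pluripotent library lay below every MEF library, and Timp1 fell by 3.88 on the log2 scale (SE 0.25, adjusted p = 2.7e-10). It kept 3.63 to 11.3% of its mean MEF level in the pluripotent libraries and was the gene of the set with the highest level per length there, at 22.8 to 54.3 RPM per kb.

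Timp2 (chr11:118301069-118355740, - strand) stood at 10.20, 10.32 and 10.32 in female MEFs. In the pluripotent groups it was 0.65, 1.45 and 0.83 in TX 2i ESCs, 1.89, 2.13 and 4.41 in M KSR5, 2.53, 2.16 and 2.34 in M KSR3, 1.21, 1.71 and 2.92 in F KSR4 and 1.33, 0.87 and 3.68 in F KSR2. It fell by 8.27 on the log2 scale (SE 0.51, adjusted p = 1.47e-10), to 0.127 to 1.72% of the MEF level. The highest pluripotent value, in M KSR5 replicate 3, rested on 368 reads, against 67 and 78 reads in the other replicates of that line.

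Timp3 (chr10:86300372-86349506, + strand, overlapping Syn3 on the other strand) stood at 9.62, 10.49 and 10.34 in female MEFs. The pluripotent values were 2.80, 3.13 and 3.35 in TX 2i ESCs, 2.55, 2.13 and 5.12 in M KSR5, 1.68, 2.19 and 1.96 in M KSR3, 2.60, 1.93 and 2.00 in F KSR4 and 3.52, 2.85 and 4.43 in F KSR2. The gene fell by 7.33 on the log2 scale (SE 0.44, adjusted p = 8.28e-11). M KSR5 replicate 3 was again the highest, with 599 reads, and F KSR2 replicate 3 the next, with 355 reads. In M KSR5 replicate 3 the summed fibroblast markers stood at 1.20% of their MEF level, against 0.383 and 0.528% in replicates 1 and 2, and in F KSR2 replicate 3 at 0.670%, between the 0.437 and 0.823% of the other replicates. The median over the single markers was highest in replicate 3 of both lines. It was 0.557% in M KSR5, against 0.258 and 0.367%, and 0.243% in F KSR2, against 0.192 and 0.146%. Summed markers of some other lineages were also highest in replicate 3. In M KSR5 replicates 1 to 3, endoderm markers were 69.4, 87.4 and 180 RPM and primitive streak markers 13.9, 14.1 and 26.0. In F KSR2, trophoblast markers were 64.2, 93.2 and 259 RPM and primitive streak markers 23.3, 23.0 and 53.4. Endothelial markers in M KSR5 and endoderm markers in F KSR2 lay between the other replicates. The part of remaining or feeder fibroblasts or of other cell types in these values was not tested.

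**Figure D2:**
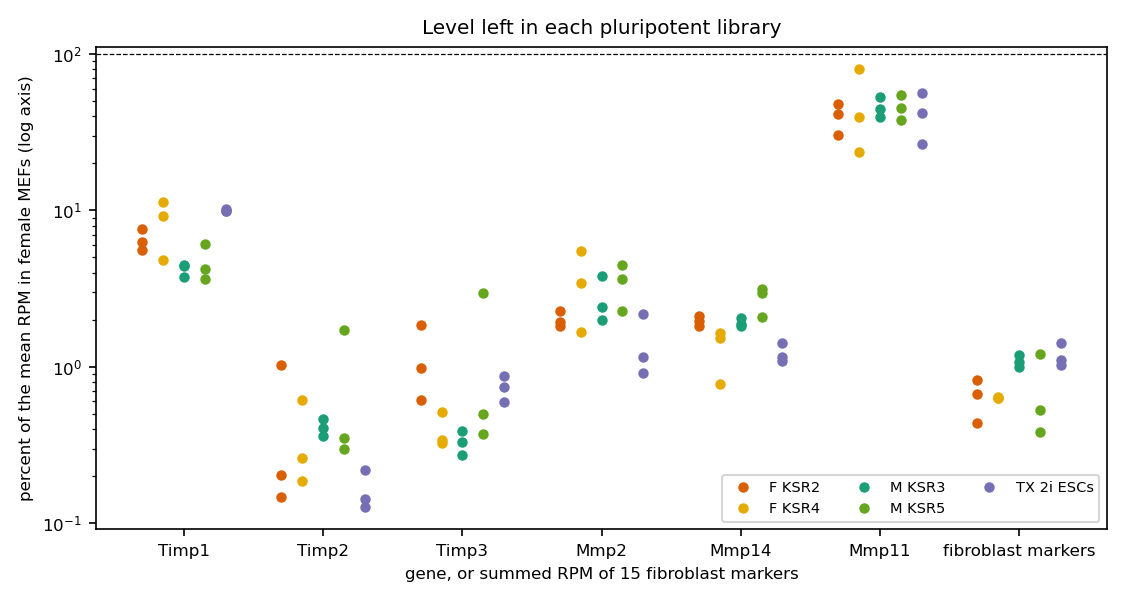
RPM in each of the 15 pluripotent libraries as a percent of the mean RPM in female MEFs (log axis; 1 point per library, coloured by group; dashed line at 100%), for 6 genes and for the summed RPM of 15 fibroblast markers. Timp1 (3.63 to 11.3%) and Mmp11 (23.5 to 80.4%) lie above the marker sum (0.383 to 1.43%) in every library, whereas Timp2 and Timp3 overlap it.

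The gelatinases cleave denatured collagen and the type IV collagen of basement membranes. Mmp2 (chr8:92827328-92853417, + strand), the gelatinase that fibroblasts make constitutively, stood at 9.15, 9.12 and 9.18 in female MEFs. It was 2.38, 3.63 and 2.71 in TX 2i ESCs, 4.38, 3.69 and 4.66 in M KSR5, 4.43, 3.50 and 3.78 in M KSR3, 3.24, 4.96 and 4.29 in F KSR4 and 3.37, 3.45 and 3.69 in F KSR2. All pluripotent libraries lay below the MEFs, with a difference of -5.40 ± 0.30 (SE, adjusted p = 3.41e-11).

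Mmp9 (chr2:164940780-164955850, + strand), the gelatinase that leukocytes release and that cytokines induce in other cells, was lower and more variable, at 2.39, 3.89 and 4.01 in female MEFs. The values were -1.35, -0.90 and -3.97 in TX 2i ESCs, 1.75, 2.27 and 2.67 in M KSR5, 1.96, 1.69 and 1.22 in M KSR3, 0.91, 0.41 and 0.50 in F KSR4 and -0.84, -0.64 and 1.05 in F KSR2. MEFs and pluripotent libraries overlapped in this gene, since MEF replicate 1 lay below M KSR5 replicate 3, and the mean difference was -2.98 ± 0.54 (SE, adjusted p = 8.1e-05).

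The 6 membrane-type MMPs, which act at the cell surface, moved in both directions. Mmp14 (chr14:54431604-54441258, + strand) encodes the membrane enzyme that cleaves fibrillar collagen and activates the MMP2 zymogen. It stood at 9.09, 9.28 and 9.17 in female MEFs. In pluripotent cells it was 2.65, 2.75 and 3.05 in TX 2i ESCs, 3.59, 4.19 and 4.10 in M KSR5, 3.45, 3.57 and 3.40 in M KSR3, 3.14, 2.18 and 3.26 in F KSR4 and 3.51, 3.61 and 3.40 in F KSR2. No group overlapped the MEFs, and the gene fell by 5.86 on the log2 scale (SE 0.20, adjusted p = 4.53e-14).

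Mmp15 (chr8:95352268-95374293, + strand), a close relative of Mmp14 found in many epithelia, went the other way. Its values were 1.69, 2.05 and 1.88 in female MEFs, 4.72, 4.79 and 4.80 in TX 2i ESCs, 4.43, 3.56 and 3.54 in M KSR5, 4.21, 3.29 and 3.81 in M KSR3, 4.08, 3.42 and 2.74 in F KSR4 and 2.75, 2.60 and 3.47 in F KSR2. All 15 pluripotent libraries lay above the 3 MEF libraries, by 1.87 ± 0.27 in the mean (SE, adjusted p = 8.59e-06), and Mmp15 was higher in each of the 5 groups.

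Mmp25 (chr17:23629458-23645269, - strand), a membrane enzyme anchored by a lipid and best known from neutrophils, had 3, 1 and 0 reads in the MEF libraries. The log2 RPM values were 1.34, 1.75 and 1.88 in TX 2i ESCs, 1.21, 2.37 and 3.06 in M KSR5, -1.78, 0.36 and 0.15 in M KSR3, 2.14, 0.52 and 0.57 in F KSR4 and 1.93, 1.66 and 1.25 in F KSR2. Each pluripotent library lay above each MEF library, and the difference was 4.94 ± 0.52 (SE, adjusted p = 1.52e-07). Since the MEFs had 4 reads in all, the size of this difference depends on how 0 reads is held. Mmp25 also passed the filter through the pluripotent libraries alone. The 7 macrophage markers summed to 4.77 to 28.9 RPM in the pluripotent libraries, with 3 to 5 of the 7 at 0 reads in each, and their part in the Mmp25 level was not tested.

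Mmp24, a membrane enzyme known from the nervous system, was at low levels, with 0 to 7 reads in the MEF libraries and 3 to 30 reads in the pluripotent ones. Its difference of 1.85 ± 0.68 passed the threshold (SE, adjusted p = 0.0208), but not without female MEFs replicate 1, where the adjusted p was 0.255. Mmp16 had 228 to 286 reads in MEFs and 0 to 5 reads in pluripotent libraries, 18 in all, and was 197-fold lower in RPM over these 15 libraries (95% counting interval 124 to 332). Mmp17, a lipid-anchored enzyme, was not called between these groups (0.91 ± 0.43, SE, adjusted p = 0.066). Its highest value was 4.99 in F KSR4 replicate 2, against 2.48 and 2.00 in the other replicates of the line.

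The secreted collagenases, stromelysins and matrilysin mostly lie in a cluster of 10 Mmp genes within 427 kb of chromosome 9 (chr9:7272514-7699585, GRCm38). In order along the chromosome these are Mmp13, Mmp12, Mmp1b, Mmp3, Mmp1a, Mmp10, Mmp8, Mmp27, Mmp20 and Mmp7. Most were close to silent in all cells, and 3 of the 10 were tested. The stretch before the start site is given for 4 of the genes with a window that holds the AP-1 letters named below. These are Mmp13 and Mmp3 as the 2 with the highest counts in MEFs, Mmp10 as one with few reads and Mmp7 as one with none. In each, 150 bases upstream of the start in the RefSeq annotation of GRCm38.p6 are given in the direction of transcription (+ strand), with matches to TGAGTCA or TGACTCA, the letters bound by AP-1 factors, and to TATAAA in capitals.
Mmp13 (chr9:7272364-7272513): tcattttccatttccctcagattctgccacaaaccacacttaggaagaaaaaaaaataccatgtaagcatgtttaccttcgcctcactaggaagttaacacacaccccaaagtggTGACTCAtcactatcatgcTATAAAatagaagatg
Mmp3 (chr9:7445672-7445821): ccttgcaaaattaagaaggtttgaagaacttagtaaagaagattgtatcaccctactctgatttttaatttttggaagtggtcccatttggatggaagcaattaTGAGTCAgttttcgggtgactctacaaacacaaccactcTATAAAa
Mmp10 (chr9:7502192-7502341): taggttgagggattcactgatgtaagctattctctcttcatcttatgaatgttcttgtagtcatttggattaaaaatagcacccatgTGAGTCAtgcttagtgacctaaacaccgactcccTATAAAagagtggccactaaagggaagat
Mmp7 (chr9:7691940-7692089): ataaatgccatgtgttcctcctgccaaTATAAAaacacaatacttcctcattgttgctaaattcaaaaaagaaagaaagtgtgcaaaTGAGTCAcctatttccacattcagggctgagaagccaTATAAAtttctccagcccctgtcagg

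The AP-1 letters begin 35 bases before the start in Mmp13, 46 in Mmp3, 63 in Mmp10 and 63 in Mmp7. RefSeq promoter windows of 300 bases were matched to 32 of the 46 genes, in 35 windows. These were all 10 cluster genes and 22 of the genes outside the cluster. Genes without a window, among them Mmp2, Mmp9, Mmp16 and Adamts5, were not searched, so the letters are not shown to be absent outside the cluster. The letters TGANTCA, searched on both strands, were in 8 of the 12 windows of the chromosome 9 cluster (66.7%), in 0 of the 23 windows of the other genes, and in 7.81% of 32851 windows of all genes. TATAAA in the 50 bases before the start was in 6 of the 12 cluster windows (50%), in 4.35% of the other windows of the set and in 2.63% of all windows. The windows of Mmp8 and Mmp27, and 1 window each of Mmp12 and Mmp7, had neither TGANTCA nor this TATAAA. The CpG content of the cluster windows was low, with a median observed-to-expected ratio of 0.086 against 0.683 in the other windows of the set and 0.384 in all windows. The AP-1 letters were in windows of Mmp13, which had 217 to 770 reads in MEFs, and of Mmp7, which had 0 reads in all 18 libraries.

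Mmp13 (chr9:7272514-7283333, + strand), the main collagenase of rodents, had 217, 743 and 770 reads in the MEF libraries and 3 reads in F KSR2 replicate 3, the only pluripotent library with any. Pooled over the 15 pluripotent libraries, its RPM was 2664-fold lower than in MEFs, with a 95% counting interval of 912- to 12917-fold. Mmp3 (chr9:7445822-7455972, + strand), stromelysin 1, which cleaves many matrix proteins and activates other MMPs, had 133, 440 and 446 reads in MEFs and 0 reads in all 15 pluripotent libraries. It was at least 1569-fold lower there, when 3 reads are allowed over all 15 libraries. MEF replicate 1 was the lowest of the MEFs in both genes and in Mmp10, stromelysin 2, with 5, 46 and 53 reads. Intervals and limits of this kind cover counting error alone.

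Mmp12, the macrophage metalloelastase, had 43, 41 and 42 reads in MEFs and 0 to 71 in the pluripotent libraries, a difference of -2.13 ± 0.56 (SE, adjusted p = 0.00251) with overlapping groups. The collagenases Mmp8, Mmp1a and Mmp1b had at most 5, 3 and 8 reads in any library. Mmp27 had at most 4 reads. Mmp7, the matrilysin of epithelia, and Mmp20, the enamel protease, had 0 reads in all libraries, which at the floor of 3 reads allows up to 3 in each.

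Outside the cluster, Mmp11 (chr10:75923222-75932502, - strand), stromelysin 3, which is secreted in active form, kept more of its fibroblast level than the other called MMPs with a fibroblast mean above 5. It stood at 5.71, 5.77 and 5.94 in female MEFs. The pluripotent values were 4.56, 4.99 and 3.91 in TX 2i ESCs, 4.65, 4.41 and 4.95 in M KSR5, 4.91, 4.47 and 4.65 in M KSR3, 4.47, 5.49 and 3.72 in F KSR4 and 4.74, 4.54 and 4.09 in F KSR2. All lay below the MEFs, by 1.24 on the log2 scale in the mean (SE 0.27, adjusted p = 0.000537). Per length it was the second of the set after Timp1 in every pluripotent group, at 9.75 to 11.7 RPM per kb.

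Mmp23 (chr4:155650655-155653384, - strand), an unusual MMP with an N-terminal membrane anchor, stood at 5.86, 4.84 and 5.09 in female MEFs. It was 1.91, 1.98 and 1.70 in TX 2i ESCs, 1.55, 2.16 and 2.16 in M KSR5, 0.29, 1.14 and 1.12 in M KSR3, 1.14, 1.47 and 2.64 in F KSR4 and 0.16, 0.17 and 0.28 in F KSR2. The groups did not overlap the MEFs, and the gene fell by 3.94 on the log2 scale (SE 0.32, adjusted p = 4.53e-09). Mmp19 fell by 4.49 (adjusted p = 1.66e-06), from 278 to 509 reads in MEFs to 2 to 40 elsewhere. Mmp28 (epilysin) fell by 1.57 (adjusted p = 0.0165), a call that was lost without female MEFs replicate 1, at an adjusted p of 0.093. Mmp21 had at most 12 reads and was not tested.

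The ADAMTS enzymes that cleave aggrecan and versican were split. Adamts1 (chr16:85793827-85803113, - strand) and Adamts5 (chr16:85858170-85901125, - strand) are neighbours on chromosome 16, and ADAMTS5 is the main aggrecanase of mouse cartilage. Adamts1 stood at 7.91, 7.14 and 7.0 in female MEFs. It was -1.35, 0.17 and -0.51 in TX 2i ESCs, -4.18, 1.16 and 1.93 in M KSR5, 0.60, -0.20 and 1.00 in M KSR3, 0.86, 2.18 and 0.50 in F KSR4 and 0.09, 0.03 and 0.35 in F KSR2. The lowest of these, in M KSR5 replicate 1, was 1 read, against 40 and 66 reads in the other replicates. The gene fell by 7.18 on the log2 scale (SE 0.81, adjusted p = 3.63e-07).

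Adamts5 stood at 7.36, 5.88 and 5.86 in female MEFs. It was -4.31, -4.38 and -4.13 in TX 2i ESCs, -4.33, -4.16 and 1.25 in M KSR5, -4.26, -4.44 and -4.17 in M KSR3, -1.37, -2.59 and -1.57 in F KSR4 and -2.57, -4.22 and -0.45 in F KSR2. In reads, the pluripotent libraries held 74 in all, of which 41 were in M KSR5 replicate 3, and TX 2i ESCs had 0. Over the 15 pluripotent libraries the RPM was 309-fold lower than in MEFs (95% counting interval 246 to 393), and in TX 2i ESCs at least 1533-fold lower, when 3 reads are allowed over the group.

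Adamts4, the other aggrecanase, fell by 3.07 (adjusted p = 7.98e-08). Adamts8 was higher in the pluripotent mean (1.87 ± 0.53, SE, adjusted p = 0.00384), which was lost without female MEFs replicate 1 (adjusted p 0.062). The versican-cleaving Adamts9, Adamts15 and Adamts20 were not called, with differences of 0.41, -0.99 and -0.56 and adjusted p of 0.179, 0.052 and 0.461.

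The procollagen N-proteinases remove the N-terminal propeptide of fibrillar procollagens. Adamts2 (chr11:50602084-50807573, + strand) stood at 5.76, 4.88 and 4.89 in female MEFs. It was 0.49, 0.68 and 0.93 in TX 2i ESCs, 0.14, -0.35 and 0.59 in M KSR5, 0.14, -1.12 and -0.26 in M KSR3, -0.72, 0.82 and 0.02 in F KSR4 and 0.23, 0.24 and -0.87 in F KSR2. It fell by 5.11 on the log2 scale with no overlap (SE 0.38, adjusted p = 1.72e-09).

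Adamts14 (chr10:61197112-61273438, - strand) changed less. Its values were 4.79, 4.34 and 4.10 in female MEFs, 2.43, 3.20 and 2.13 in TX 2i ESCs, 4.40, 3.87 and 3.58 in M KSR5, 3.79, 3.10 and 3.03 in M KSR3, 3.31, 3.56 and 3.67 in F KSR4 and 4.07, 3.55 and 3.13 in F KSR2. The groups overlapped, and the mean difference was -1.02 ± 0.26 (SE, adjusted p = 0.0019). Adamts3, which also acts on the lymphatic growth factor VEGF-C, had 45 to 57 reads in MEFs and 1 to 26 in the pluripotent libraries.

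Of the other ADAMTS genes, Adamts10 (chr17:33524204-33553782, + strand), which binds fibrillin microfibrils, stood at 5.24, 5.89 and 6.02 in female MEFs. It was 1.70, 2.30 and 2.37 in TX 2i ESCs, 3.32, 3.43 and 2.82 in M KSR5, 2.95, 2.48 and 2.76 in M KSR3, 1.73, 2.81 and 2.74 in F KSR4 and 3.26, 3.67 and 2.45 in F KSR2. It fell by 3.0 on the log2 scale (SE 0.28, adjusted p = 3.83e-08) and kept 6.02 to 23.5% of its MEF level. Adamts12, which degrades the cartilage protein COMP, had 405 to 732 reads in MEFs and 16 reads over all 15 pluripotent libraries, a 506-fold difference in RPM (95% counting interval 312 to 886). Adamts7, its close relative, was not called (-0.09 ± 0.43, SE, adjusted p = 0.855), and neither was Adamts19 (1.78 ± 0.92, adjusted p = 0.0898). Adamts16 and Adamts18 had 18 to 43 and 5 to 26 reads in MEFs and at most 5 and 2 reads elsewhere. Adamts17, with 1 to 25 reads, and Adamts13, the protease of von Willebrand factor, with 1 read in all, were not tested either.

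Summed by family, the Mmp genes took 1361 RPM in female MEFs (1318 to 1387), the Adamts genes 471 RPM (370.1 to 627) and the Timp genes 2896 RPM (2208 to 3249). In the pluripotent groups the 46 genes together had means of 169 to 225 RPM, against 4728 RPM in MEFs. The summed Timp level was 2.12 times the summed Mmp level in MEFs (1.68 to 2.34) and 0.330 to 0.666 times in the pluripotent group means, with the highest pluripotent library at 1.02. These sums are not corrected for gene length, and the ratio depends on it. Timp1 has only 888 bp of exons, against 2288 bp for Mmp11. Divided by exon length, Timp1 had group means of 22.8 to 54.3 RPM per kb in pluripotent cells, and Mmp11 9.75 to 11.7. The sums therefore do not show that the inhibitors fell below the enzymes per length.

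Between KSR-iPSCs and TX 2i ESCs, limma called 9 of the 33 genes tested. In KSR-iPSCs 5 genes (15.2%) were higher and 4 (12.1%) lower than in TX 2i ESCs, against 11.0% and 12.0% of all 14632 genes, so the shares were near those of all genes. Adamts6, Mmp9, Mmp2, Adamts14 and Mmp14 were higher in KSR-iPSCs, and Adamts8, Mmp15, Adamts9 and Timp1 were lower. The call of 4 lower and 5 higher genes became 2 and 2 without TX 2i ESCs replicate 1, 2 and 4 without replicate 2, and 3 and 3 without replicate 3. Without both libraries that stood apart, 6 genes were lower and 5 higher. Adamts6, Mmp9, Adamts8 and Mmp15 were called under all 27 alternatives.

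Adamts6 (chr13:104287873-104494763, + strand), an enzyme linked to heart development, had 0, 0 and 0 reads in TX 2i ESCs. Its log2 RPM values were -1.01, -0.07 and 0.21 in M KSR5, 0.36, -0.29 and -0.36 in M KSR3, 0.73, -2.59 and -1.30 in F KSR4 and -1.57, -0.41 and 0.05 in F KSR2, and 3.41, 4.50 and 3.95 in female MEFs. All 12 KSR-iPSC libraries had reads, 3 to 30 each, and lay above all TX 2i libraries (adjusted p = 9.81e-05). The level in KSR-iPSCs was at least 14.6-fold higher, when 3 reads are allowed over the 3 TX 2i libraries.

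Mmp9 had 7, 10 and 1 reads in TX 2i ESCs and 10 to 110 reads in KSR-iPSCs. Every KSR-iPSC library was above every TX 2i library, by 3.16 ± 0.55 in the mean (SE, adjusted p = 0.000549). Mmp2 was higher by 1.04 ± 0.31 (SE, adjusted p = 0.0205), Adamts14 by 1.00 ± 0.27 (adjusted p = 0.0118) and Mmp14 by 0.63 ± 0.20 (adjusted p = 0.0301), each with overlapping libraries. The Mmp14 call was also lost with limma-voom and in a fit of the groups compared alone.

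Adamts8 (chr9:30942562-30963838, + strand), an enzyme with anti-angiogenic activity, stood at 2.90, 2.76 and 2.70 in TX 2i ESCs. In KSR-iPSCs it was 0.82, -0.25 and 0.98 in M KSR5, -0.40, -1.12 and -0.47 in M KSR3, 1.14, -1.85 and -0.19 in F KSR4 and 0.65, 0.24 and 0.87 in F KSR2, and in female MEFs -2.45, -1.49 and 0.07. The TX 2i libraries were the highest of all 18, and the difference was -2.75 ± 0.54 (SE, adjusted p = 0.00139). Mmp15 was lower in all 12 KSR-iPSC libraries than in the 3 TX 2i libraries, by 1.28 (SE 0.28, adjusted p = 0.00323).

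Adamts9 (chr6:92772699-92943492, - strand) stood at 4.58, 4.71 and 4.09 in TX 2i ESCs and at 3.62, 3.54 and 2.84 in female MEFs. It was 3.54, 2.70 and 4.02 in M KSR5, 3.29, 3.22 and 3.31 in M KSR3, 3.78, 3.05 and 3.43 in F KSR4 and 4.58, 3.53 and 4.37 in F KSR2. The libraries overlapped and the difference was -0.89 ± 0.28 (SE, adjusted p = 0.028). Timp1 was lower in KSR-iPSCs by 0.85 (SE 0.26, adjusted p = 0.024), with F KSR4 replicate 3 above the TX 2i libraries, and lost the call without any 1 of the TX 2i libraries. This gene is X-linked, and its mean was 5.10 ± 0.46 (SD, n = 6) in the female lines, 4.39 ± 0.26 (SD, n = 6) in the male lines and 5.59 ± 0.03 (SD, n = 3) in the female TX 2i ESCs, and sex was not separated in this comparison.

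**Figure D3:**
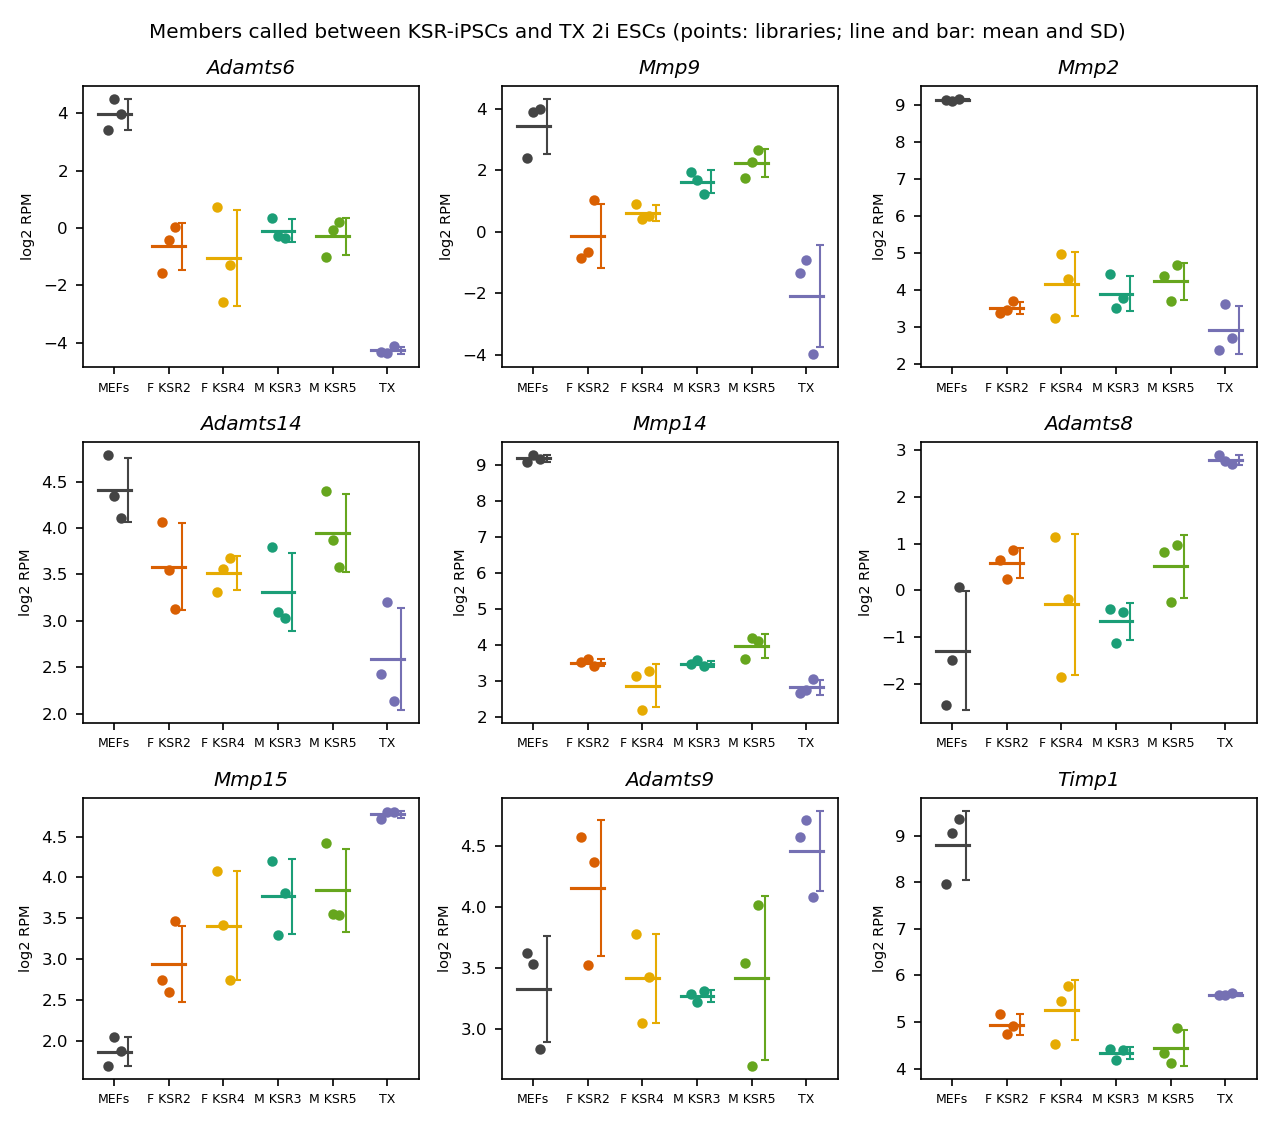
Log2 RPM (y axis, a separate scale per panel) of the 9 genes called between KSR-iPSCs and TX 2i ESCs in the 6 groups (x axis; points are the 3 libraries, the line and bar the mean and SD). Adamts6 is at 0 reads in the 3 TX 2i libraries, and Adamts8 and Mmp15 are highest there.

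Female and male KSR-iPSCs differed in 2 of the 27 genes that passed the filter in their 12 libraries. The female lines share an embryo of origin, and the male lines share a different embryo. This comparison therefore does not separate the sex of the donor from the embryo used. Mmp9 was lower in female lines (3.70%, against 1.28% of 13609 genes) and Mmp12 higher (3.70%, against 1.59%). Mmp9 was -0.84 to 1.05 (median 0.46) in the 6 female and 1.22 to 2.67 (median 1.86) in the 6 male libraries, which did not overlap, with a difference of -1.70 ± 0.40 (SE, adjusted p = 0.0305). Mmp12 was -1.37 to 1.97 (median 0.36) in female and -4.32 to -0.72 (median -2.64) in male libraries, where 2 of 6 had 0 reads, with a difference of 3.07 ± 0.74 (SE, adjusted p = 0.0333) and an overlap at F KSR4 replicate 2. No male library was above a log2 RPM of 0, so Mmp12 passed the filter through the female libraries alone. Its call therefore says less than its values. Its single values were 0.01, -0.64 and 0.93 in TX 2i ESCs, -0.72, -2.57 and -1.79 in M KSR5, -4.26, -2.70 and -4.32 in M KSR3, 1.97, -1.37 and 0.36 in F KSR4 and 0.36, -0.05 and 0.77 in F KSR2, and 1.39, 1.06 and 1.14 in female MEFs.

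Both calls depended on the fit. With line as a random effect neither gene was called, and with 1 library left out the count was 0 to 2. Without both libraries that stood apart, Mmp12 alone was called, and the adjusted p of Mmp9 was 0.053. The X-linked Timp1 was 0.71 higher in female lines (SE 0.22, adjusted p = 0.0915, not called), and the median of 521 X-linked genes was 0.71 higher, against -0.13 for 13067 autosomal genes. Timp1 is 1 of these 521 genes and its value is that median, so the equal values are not separate results.

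Between the 2 female lines, 1 of 33 genes was called. Mmp28 (chr11:83440768-83463071, - strand), which is expressed in skin and testis, was higher in F KSR2 than in F KSR4 (3.03%, against 0.574% of all genes). Its values were 1.51, 1.76 and 1.01 in F KSR2 and 0.52, -1.85 and -3.89 in F KSR4, where replicate 3 had 1 read, and the difference was 3.17 ± 0.72 (SE, adjusted p = 0.0396). It was 1.99, 1.39 and 1.35 in TX 2i ESCs, 1.28, 0.80 and 1.17 in M KSR5 and 3.29, 3.29 and 2.94 in M KSR3, and 3.28, 2.61 and 2.14 in female MEFs. The call was lost under 18 of 27 alternatives, and its adjusted p ranged up to 0.806. Mmp28 was also 2.09 higher in M KSR3 than in M KSR5, which was not called (adjusted p = 0.11). In M KSR3 the 110 genes tested within 5 Mb of Mmp28 had a median of 0.57 above M KSR5 and a maternal share of 68.6 to 68.7%, against 53.5 to 54.0% in M KSR5. The part of this region in the Mmp28 level was not tested.

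Between the male lines, Mmp25 was lower in M KSR3 than in M KSR5, and no other gene of the set was called. This was 3.03% lower and 0% higher, against 2.1% lower and 2.38% higher among all genes, so the share called was not above that of all genes. The 3 M KSR3 libraries lay below the 3 M KSR5 libraries, with a difference of -2.64 ± 0.67 (SE, adjusted p = 0.0347). M KSR3 replicate 1 was the lowest, with 5 reads. The call was lost under 7 of 27 alternatives, and without both libraries that stood apart the adjusted p was 0.077.

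Mmp23 was not called between the female lines (-1.54 ± 0.41, SE, adjusted p = 0.0755), although all F KSR2 libraries lay below all F KSR4 libraries. The 78 genes tested within 5 Mb of it on chromosome 4 had a median of -0.81 in F KSR2 against F KSR4, and 92.3% of them were below 0. Their summed maternal share was 1.97 to 5.28% in F KSR2 and 49.7 to 53.0% in F KSR4. The part of the region in the Mmp23 value was not tested.

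**Figure D4:**
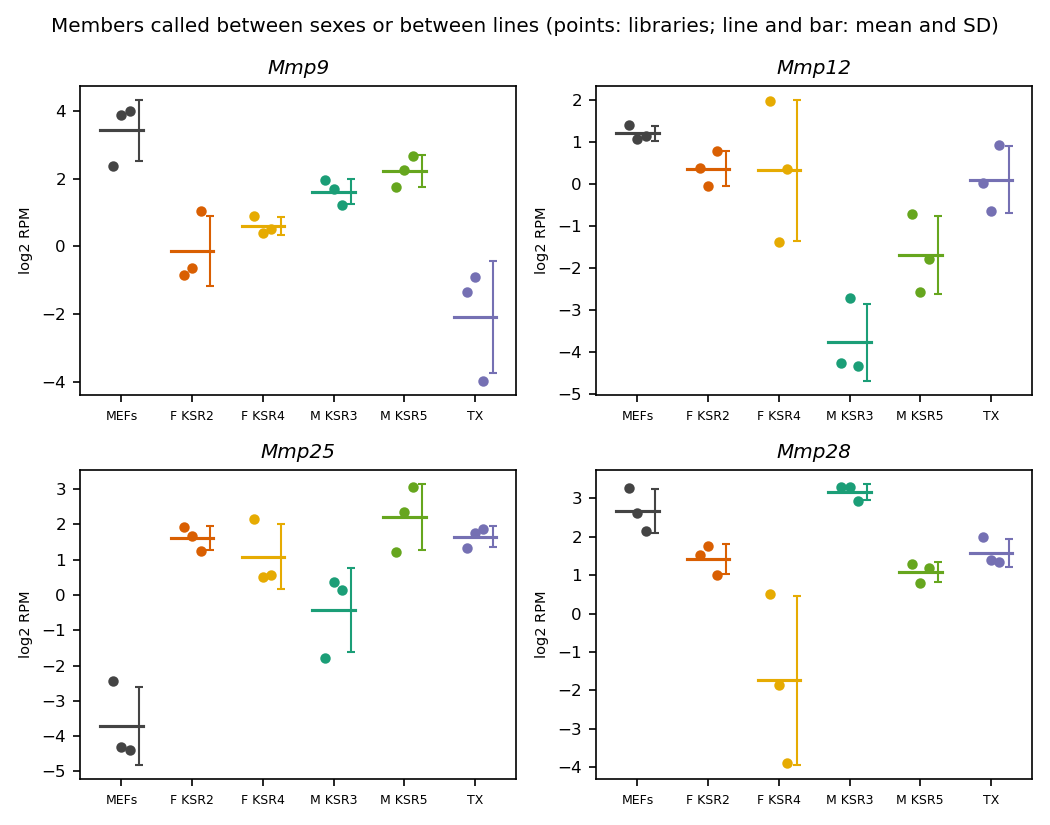
Log2 RPM (y axis, a separate scale per panel) of Mmp9, Mmp12, Mmp25 and Mmp28 in the 6 groups (x axis; points are the 3 libraries, the line and bar the mean and SD). Mmp9 is higher in both male lines than in both female lines, and Mmp28 is lowest in F KSR4.

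Reads that cover a difference between the BL6 and the CAST genome tell the maternal from the paternal allele. They made up 17.7 to 19.9% of the reads of a library. A group is described where all 3 libraries had at least 10 such reads of the gene, and the share is the mean of the 3 libraries with its SD. No test was run on these shares.

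Timp1 gave a maternal share of 33.6% ± 7.8 in female MEFs, 56% ± 4.3 in TX 2i ESCs, 59.8% ± 7.9 in F KSR4 and 55.8% ± 5.2 in F KSR2. In both male lines all its allelic reads, 29 to 47 in each M KSR3 and 27 to 35 in each M KSR5 library, were maternal, and male cells have a single, maternal X chromosome. MEF libraries were below 40% and the libraries of the female pluripotent groups at or above 50%.

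Adamts14 on chromosome 10 had a higher maternal share in pluripotent cells than in MEFs. Its share was 41% ± 9.2 in MEFs, 88.6% ± 7.4 in TX 2i ESCs, 71% ± 4.3 in M KSR5, 81.5% ± 4.5 in M KSR3, 79.4% ± 7.3 in F KSR4 and 73% ± 6.6 in F KSR2. The highest MEF library was at 49.6% and the lowest pluripotent library at 66.0%, while the other genes within 5 Mb of Adamts14 had a summed share of 49.3 to 53.3% in all libraries. Adamts7 on chromosome 9 had a lower maternal share, with 43.1% ± 0.7 in MEFs, 14.7% ± 5.9 in TX 2i ESCs, 17.2% ± 9.9 in M KSR3, 17.3% ± 22.0 in F KSR4 and 19% ± 9.0 in F KSR2. Single libraries of F KSR4 ranged from 3.33 to 42.6%, on 30 to 54 reads each. The other genes within 5 Mb of Adamts7 had a summed share of 39.2 to 45.8% in all libraries.

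Adamts9 on chromosome 6 was 92% ± 13.9 maternal in F KSR2 (75.9 to 100%), 68.6% ± 5.9 in MEFs, and 48.9 to 57.4% in the means of the other groups. The other genes of chromosome 6 together had a maternal share of 93.2 to 98.6% in F KSR2, so the share was not particular to Adamts9 there, against 48.6 to 54.3% in the other groups. Those within 5 Mb of Adamts9 had a share of 60.8 to 62.4% in MEFs, so a maternal excess there was not particular to Adamts9 either. Mmp23 was 40.8% ± 1.9 maternal in MEFs, 21.2% ± 12.9 in TX 2i ESCs, 25.4% ± 15.3 in M KSR5 and 22.3% ± 1.3 in F KSR4. In TX 2i ESCs the other genes within 5 Mb of Mmp23 had a share of 27.6 to 37.0% and those of the whole chromosome 4 of 27.7 to 37.5%, against 50.5 to 51.5% and 49.7 to 53.0% within 5 Mb in M KSR5 and F KSR4. Mmp11 stayed close to equal, at 44.4% ± 2.6 in MEFs and 54.2 to 59.4% in the means of the pluripotent groups. Since the maternal allele is always BL6 in these crosses, parental origin and strain cannot be told apart.

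**Figure D5:**
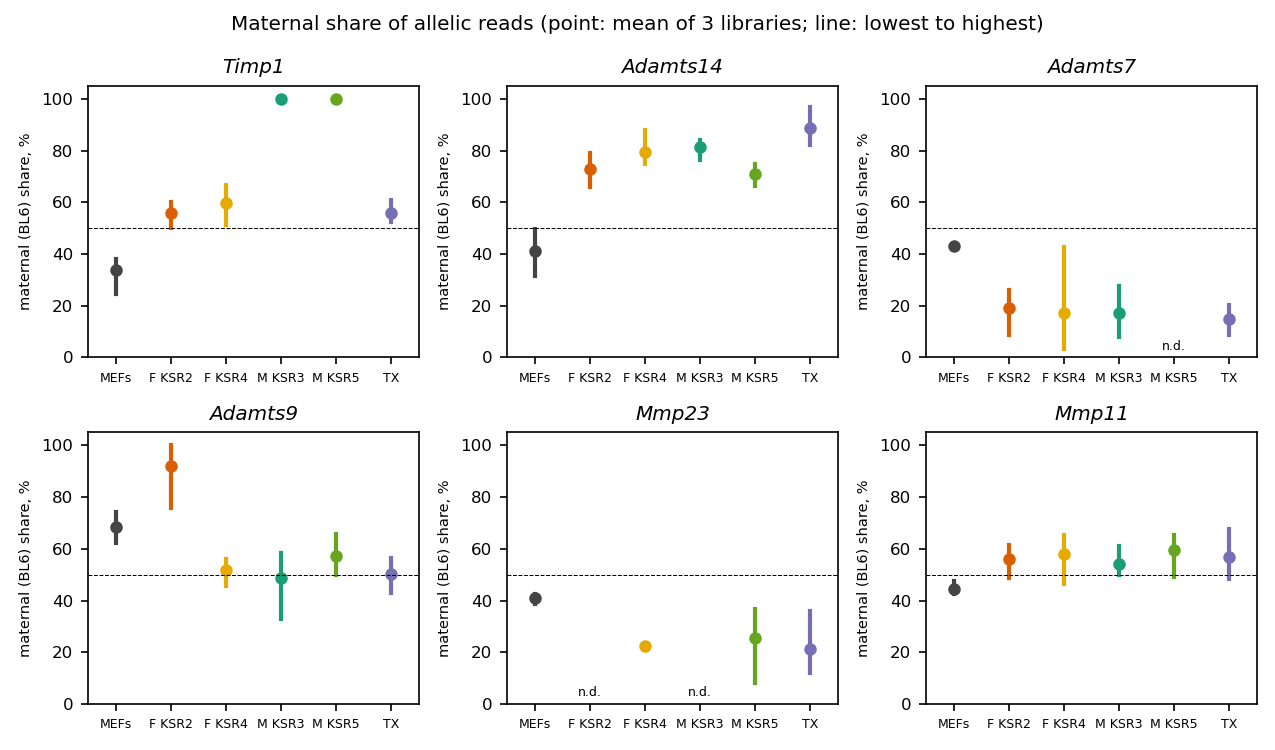
Maternal (BL6) share of the allelic reads in percent (y axis) of 6 genes in the 6 groups (x axis; point, mean of 3 libraries; line, lowest to highest library; dashed line, 50%; n.d., under 10 allelic reads in a library). Timp1 is at 100% in the male lines, Adamts14 lies above the MEFs and Adamts7 below them in all pluripotent groups described.

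Genes that act with these enzymes were looked at from 4 lists of related genes, which were chosen with earlier results of these data known. Of 14 tested genes for protease activation and control at the cell surface, 12 were lower in the pluripotent groups than in MEFs and 1 was higher, against 32.5% lower and 42.1% higher among all 14632 genes, which holds for the other lists too. The matrix receptor Cd44 fell most (-8.87 ± 0.72, SE, adjusted p = 5.61e-09), and the proprotein convertase Pcsk6 was higher (1.12 ± 0.14, adjusted p = 1.66e-06). All 6 tested genes of ADAMTS-like proteins, which have no protease domain, were lower. The largest changes were those of Adamtsl3, with 475 to 676 reads in MEFs and at most 5 elsewhere, and Adamtsl2, with 22 to 38 and at most 1, but both passed the filter through the MEF libraries alone and had to differ.

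Of 10 membrane-bound ADAM genes, 8 were lower, of which Adam12 and Adam33 passed the filter through the MEFs alone. Adam12 had 1849 to 3419 reads in MEFs and at most 13 elsewhere, the log2 difference of Adam8 was -3.87 ± 0.33, and Adam22 was higher (0.87 ± 0.28). Of 12 substrates of the enzymes, 10 were lower, led by the collagen genes Col3a1 (-12.12 ± 1.08) and Col1a2 (-10.57 ± 0.94). Between KSR-iPSCs and TX 2i ESCs, 12.0% of all genes were lower and 11.0% higher in KSR-iPSCs. Furin (-1.37 ± 0.22) and Pcsk6 (-1.27 ± 0.15) of the activation list were lower in KSR-iPSCs, and Plaur (2.13 ± 0.64) and Serpine2 (1.30 ± 0.29) were higher. Of the ADAMTS-like genes, Thsd4 was lower (-2.13 ± 0.38). Among the ADAM genes Adam22 (-1.01 ± 0.29) and Adam10 (-0.90 ± 0.18) were lower, and Adam23 (1.94 ± 0.22) and Adam8 (1.04 ± 0.34) higher. Of the substrates 3 were higher, among them Col3a1, with 0 reads in TX 2i ESCs and 3 to 428 in the KSR-iPSC libraries, and Eln (1.74 ± 0.59). Between M KSR3 and M KSR5, Adam19 and Col2a1 were lower in M KSR3.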

How the data were processed

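RNA-seq values of 18 libraries were used, with groups and replicate numbers taken from the sample titles. Methylation samples of the series were not used here. Reads were trimmed with Trim Galore 0.6.1 and aligned to GRCm38 with Hisat2 2.1.0, versions given in the submitters' processing notes, and the authors quantified them per gene and by strand in SeqMonk. They deposited log2 RPM in 4 columns per library: all reads, reads without an informative SNP, BL6 reads and CAST reads. The study's methods write Log2 RPKM, but low values are whole multiples of 1 read for genes of any length, so no length correction is in them. The labels and the methods differ on read length and layout. Reads were recovered by undoing the logarithm; 99.97 to 100% of values were within 0.05 of a whole number. A gene without reads is held at 0.9 read.

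Differences were tested with limma 3.58.1 in R 4.3.3, with an intensity trend, keeping genes whose log2 RPM exceeded 0 in 3 or more of the fitted libraries, and adjusted by Benjamini-Hochberg over all of these at 0.05. Female and male lines had a fit of their own; the other comparisons came from 1 fit of the 18 libraries. Errors are standard errors of the fit. Replicates are samples of the same line, and so p-values of the fit of 18 libraries measure the spread within lines. The fit of the sexes had sex as its only factor, so its spread also holds differences between lines of a sex. Libraries of the same line count there as separate samples. Levels per kb divide by the union of exons in GENCODE M21 (GRCm38). For 8 of the genes the identifiers in the table belong to another gene, so symbols were used. Promoter windows are from RefSeq (GRCm38.p6). The script was tested on simulated data. Replicates of a group differed by 2.89 to 60.4 times the counting noise (median squared difference), more than repeat sequencing of 1 library would give. This does not show whether they came from separate cultures. Replicate numbers were not taken to pair libraries across groups, since the correlation of deviations was above 0.1 in only 13 of 45 same-numbered pairs.

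The genes of the set, the lists of related genes and the marker lists were chosen with earlier results of these data known. Every gene of the set is named, and values in all libraries are given for the Timp genes, genes with a mean log2 level of at least 5 in any group, and genes called between pluripotent groups; from each list of related genes, up to 2 called genes per direction are named by size of change, except for an item that is not reported here. Alternatives were a pseudocount of 1, no filter or a stricter filter (log2 above 1), median-of-ratios scaling, limma-voom on recovered reads, the compared groups alone, all 18 libraries in the fit of the sexes, no intensity trend, a replicate block, line as a random effect, and leaving out each library. Leaving out F KSR4 replicate 2 and M KSR5 replicate 3 together was added after seeing the data. Allelic shares used libraries with at least 5 allelic reads.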

Additional observations from a re-analysis of the deposited data

Results flagged for a closer look

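In each sex, the 6 KSR-iPSC libraries were examined for 1 value far from the rest, over the 27 genes tested between the sexes. Of 54 groups of 6, 6 were past Dixon's 95% critical value, and chance passes about 1 in 20. Mmp14 stood at 2.18 in F KSR4 replicate 2, against 3.14 to 3.61 in the other female libraries. Adamts1 stood at -4.18 (1 read) in M KSR5 replicate 1, against -0.20 to 1.93 in the other male libraries. Adamts19 stood at -4.44 (0 reads) and Mmp24 at -1.48 (7 reads) in M KSR3 replicate 2, against -0.85 to 0.60 and -0.02 to 0.73. Timp2 stood at 4.41 and Timp3 at 5.12 in M KSR5 replicate 3, against 1.89 to 2.53 and 1.68 to 2.55. All values are log2 RPM.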

How the results depend on the processing

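The comparison with female MEFs changed little: 23 to 27 genes were lower and 3 to 5 higher under 8 alternatives, 18 to 24 and 3 to 5 with each library left out, and the count lower in each of the 5 groups was 18 to 22 and 14 to 19. Median-of-ratios scaling moved the median of all genes from 0.21 to 0.03 in this comparison, and the differences are to be read relative to it. Between KSR-iPSCs and TX 2i ESCs, 2 to 5 genes were lower and 2 to 6 higher with 1 library left out, the fewest without a TX 2i library, 4 to 5 and 4 to 6 under 8 other alternatives, and 6 and 5 without both libraries that stood apart.

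Between female and male lines, where 2 genes were called, the count was 0 to 2 with 1 library left out, 0 with no filter and with line as a random effect, 3 with all 18 libraries in the fit, and 1 with the stricter filter, with limma-voom, with the replicate block and without both libraries that stood apart. It was 0 without F KSR2 replicate 1 or 2, M KSR3 replicate 1 or 2, or M KSR5 replicate 2, and 1 without F KSR2 replicate 3, F KSR4 replicate 1 or 3, M KSR3 replicate 3 or M KSR5 replicate 3. Between F KSR2 and F KSR4, where 1 was called, the count was 0 with no filter, with limma-voom, with the groups compared alone, with no intensity trend and without both libraries that stood apart, and 0 to 3 with 1 library left out, with 3 without F KSR4 replicate 1, 1 without M KSR5 replicate 3 or a MEF library, and 0 without any other. Between M KSR3 and M KSR5, where 1 was called, the count was 2 with a pseudocount of 1 and with limma-voom, 3 with the groups compared alone, 0 with no filter, and 0 to 3 with 1 library left out, with 3 without F KSR4 replicate 2, 2 without F KSR4 replicate 1 or 3, and 0 without any M KSR3 library or M KSR5 replicate 2 or 3. Median-of-ratios scaling moved the share of lower calls over all genes from 44.6 to 28.8% between the sexes and from 49.7 to 69.6% between the female lines. The cause was not tested. With the replicate block, Mmp12 alone lost its call among the genes named; the numbers were not taken to pair the libraries, although 13 of the 18 libraries correlated best with a library of their own number, which is a hint of pairing from the data and not from the design. With a minimum of 20 allelic reads, the maternal share of Mmp23 in F KSR4 was 20.8%, from 1 library. No direction of a called gene reversed under any alternative run. Genes with a few reads per library, such as Mmp25 in MEFs, are limited by depth.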
